A study of Mus musculus with 6 samples.

Results

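The genes described here encode the receptors of transforming growth factor beta (TGF-beta) and the SMAD proteins, which carry the signal of the whole TGF-beta family to the nucleus. They are Tgfbr1, Tgfbr2, Smad1, Smad2, Smad3, Smad4, Smad5, Smad6, Smad7 and Smad9. Members were taken by gene symbol from the platform annotation, and each of the 10 genes was represented by 1 probe set, out of 19505 genes named on the array. Adrenal glands were taken whole from 6 female mice at 2 months of age, and the RNA of each animal was hybridised to an Affymetrix whole-transcript array of its own. Mutant mice (n = 3) carried Mst1 flox/flox and Mst2 flox/flox alleles together with Nr5a1-Cre, and control mice (n = 3) carried the same floxed alleles without Cre. Nr5a1-Cre is active in steroid-producing cells, and a whole gland mixes these with the capsule, vessels and medulla. Which cells of a mutant gland had recombined is not shown by these data. The groups differ in the Cre transgene as well as in recombination of the floxed genes. The study asked what inactivation of the Hippo pathway kinases MST1 and MST2 does to the adrenal cortex.

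TGF-beta binds the receptor TGFBR2, a kinase that then phosphorylates and switches on its partner kinase TGFBR1. TGFBR1 phosphorylates SMAD2 and SMAD3, whereas receptors for bone morphogenetic proteins (BMPs) phosphorylate SMAD1, SMAD5 and SMAD9. Either kind joins the shared partner SMAD4 and enters the nucleus, and the inhibitory SMAD6 and SMAD7 dampen the signal. In cultured bovine adrenocortical cells TGF-beta is known to lower steroid production, and YAP and TAZ, the coactivators held back by the Hippo kinases, can bind SMAD complexes.

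The arrays had median log2 signals of 6.76 to 6.83 over 22206 probe sets. Glands of both groups carried bright cortical markers: the 9 listed genes of the adrenal cortex, such as Star and Cyp21a1, had a mean log2 signal of 17.37 to 17.53 in mutants and 17.55 to 17.58 in controls. The targeted kinase gene Stk4 (MST1) had log2 signals of 8.14, 8.36 and 8.46 in mutants and 8.32, 8.66 and 8.94 in controls, and the groups overlapped (limma adjusted p = 0.623). Since it is unknown here whether its probes fall in the floxed exons, this value does not check the labels, and Stk3 (MST2) was not analysed here. The array's 23 background probe sets ranged from 2.53 to 7.32 log2 units, and a gene whose group means lie below the upper end of that range is called dim here. By this rule 11851 of the 22206 probe sets were dim in both groups, so dim genes are common on these arrays.

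None of the 10 receptor and SMAD genes passed the test between mutant and control glands (limma, adjusted p under 0.05), where 0.0721% of all probe sets did, 0.054% with a higher and 0.018% with a lower signal in mutants. The largest differences were higher Tgfbr2, by 1.498-fold, and higher Smad3, by 1.40-fold. These 2 genes were the members with an unadjusted p under 0.05, a limit that 10.4% of all probe sets met, 5.42% with a higher and 4.96% with a lower signal in mutants. In 4 genes, Tgfbr2, Smad3, Smad4 and Smad1, all 3 mutants lay above all 3 controls, whereas 16.4% of all probe sets had groups that did not overlap, 8% with mutants higher. Over the 10 members 7 log2 changes were above 0 and the median was 0.14, beside 48% of changes above 0 and a median of -0.01 over all probe sets. Changes are mutant minus control in log2 units, with the standard error (SE) and 95% interval of the limma fit, and p-values are adjusted by Benjamini-Hochberg over all probe sets.

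**Figure D1:**
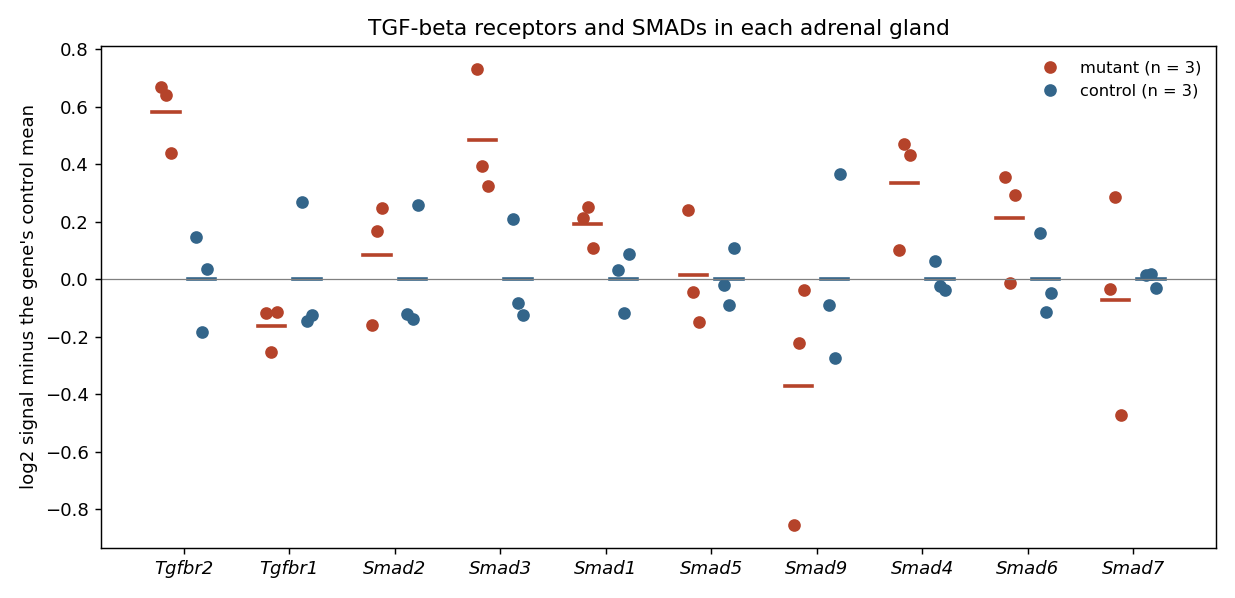
Log2 signal of each animal minus the control mean of the same gene (vertical axis, log2 units) for the 10 genes, with mutants (red, n = 3) left of controls (blue, n = 3) and bars at group means. Mutants lie above all controls for Tgfbr2, Smad3, Smad1 and Smad4, and overlap them for the other genes.

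Among the receptors, Tgfbr2, the ligand-binding kinase, had log2 signals of 11.29, 11.26 and 11.06 in the mutants and 10.76, 10.43 and 10.65 in the controls. The groups were 0.29 log2 units apart at their nearest animals. The group means were 11.20 ± 0.13 in mutants and 10.62 ± 0.17 in controls (SD, n = 3 each), a log2 change of 0.58 (SE 0.16, 95% interval 0.22 to 0.94). This did not pass over all probe sets (limma adjusted p = 0.26), and 2.1% of all probe sets had a smaller p.

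Tgfbr1, the partner kinase that TGFBR2 switches on, had log2 signals of 10.92, 10.78 and 10.92 in mutants and 11.31, 10.89 and 10.91 in controls. Control 1 stood above the other animals and the groups overlapped. Its log2 change was -0.16 (95% interval -0.54 to 0.22, SE 0.16, adjusted p = 0.793 by limma). Without 1 animal it ranged from -0.23, without control 2, to -0.03, without control 1. The measured changes of the receptor pair had opposite signs, and neither passed the test. Within each array, the Tgfbr2 signal minus the Tgfbr1 signal was 0.37, 0.48 and 0.13 log2 units in mutants and -0.54, -0.46 and -0.26 in controls. That within-array difference was 0.74 log2 units higher in mutants (exact two-sided permutation p = 0.1, the smallest that 3 against 3 animals can give). It was one of 4 gene pairs compared, after the values were known, and its Benjamini-Hochberg adjusted p was 0.4.

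Of the SMADs used by TGF-beta receptors, Smad3 had log2 signals of 12.53, 12.20 and 12.13 in mutants and 12.01, 11.72 and 11.68 in controls. The lowest mutant was 0.11 log2 units above the highest control, and mutant 1 was the highest of the 6 animals. Group means were 12.29 ± 0.22 in mutants and 11.80 ± 0.18 in controls (SD, n = 3 each), with a log2 change of 0.48 (95% interval 0.08 to 0.88, SE 0.17, adjusted p = 0.394 by limma).

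Smad2, which the same receptor phosphorylates, had log2 signals of 10.35, 10.67 and 10.75 in mutants and 10.38, 10.37 and 10.77 in controls. The groups covered nearly the same range, and the log2 change was 0.08 (95% interval -0.33 to 0.50, SE 0.18, adjusted p = 0.915 by limma). Without 1 animal it ranged from 0.0031, without mutant 3, to 0.21, without control 3 or mutant 1. Smad3 minus Smad2 within an array differed by 0.40 log2 units between groups (exact permutation p = 0.4, adjusted p = 0.5 over the 4 pairs), a test that cannot go below 0.1 with these animals.

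Smad4, the partner shared by both branches, had log2 signals of 12.51, 12.88 and 12.84 in mutants and 12.47, 12.38 and 12.37 in controls. Mutants 2 and 3 stood well above the controls and mutant 1 was 0.04 log2 units above the highest of them. The log2 change was 0.33 (95% interval -0.02 to 0.69, SE 0.16, adjusted p = 0.514 by limma).

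The start-site windows of Tgfbr2 and Smad3 are shown because these members differed most between the groups and both lay higher in every mutant. RefSeq windows of 300 bases, from 250 before to 50 after the annotated start in build GRCm38.p6, were matched for 7 of the 10 genes, not for Smad2, Smad4 and Smad7. Both windows shown are on the minus strand, at chr9:116175314-116175613 for Tgfbr2 and chr9:63757945-63758244 for Smad3, and are written 5′ to 3′ along the gene, with letters matching a searched motif in capitals.
Tgfbr2: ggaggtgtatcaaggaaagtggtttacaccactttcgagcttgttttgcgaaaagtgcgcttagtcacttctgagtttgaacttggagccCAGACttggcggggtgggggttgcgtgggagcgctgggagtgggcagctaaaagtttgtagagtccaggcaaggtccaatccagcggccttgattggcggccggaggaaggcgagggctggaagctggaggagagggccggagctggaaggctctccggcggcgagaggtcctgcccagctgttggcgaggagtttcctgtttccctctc
Smad3: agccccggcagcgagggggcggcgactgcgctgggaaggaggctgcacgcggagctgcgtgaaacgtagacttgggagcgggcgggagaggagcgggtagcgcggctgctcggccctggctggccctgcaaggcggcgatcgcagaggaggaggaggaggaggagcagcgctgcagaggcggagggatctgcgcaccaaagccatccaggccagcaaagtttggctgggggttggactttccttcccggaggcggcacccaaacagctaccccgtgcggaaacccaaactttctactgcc
The motifs searched on both strands were CATTCC, bound by TEAD partners of YAP, the SMAD box CAGAC, the GC-rich SMAD motif GGCGCC and AAGGTCA, bound by NR5A1. These letter strings do not overlap one another in the windows shown. The single match in the windows shown, in Tgfbr2, is a SMAD box that starts 160 bases before the start site. A SMAD box was also in a window of Tgfbr1 and of Smad5, and 49.6% of 32817 RefSeq windows of this length held one. CATTCC was in none of the members' windows, against 14.7% of all windows, and AAGGTCA was in none, against 4.72%. GGCGCC was in a window of Tgfbr1 and of Smad9, and at a shared site in overlapping windows of Smad5, while 11.9% of all windows held it. Tgfbr1 had 2 windows and Smad5 had 3, so these lists of genes are not on the same scale as the shares of windows. G and C bases made up 63% to 74.7% of the members' windows with GGCGCC, which were not compared with windows of like composition. A match is a string of letters and does not show binding, and its absence covers these windows alone.

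The SMADs of the BMP branch gave changes of both signs, none past the test. Smad1 had log2 signals of 12.50, 12.54 and 12.40 in mutants and 12.32, 12.17 and 12.38 in controls. Mutants were higher by a gap of 0.02 log2 units, with a log2 change of 0.19 (95% interval -0.13 to 0.52, SE 0.14, adjusted p = 0.711 by limma). Smad5, closely related to Smad1 and phosphorylated by the same receptors, had log2 signals of 13.68, 13.40 and 13.29 in mutants and 13.42, 13.35 and 13.55 in controls. Its groups overlapped, with a log2 change of 0.02 (95% interval -0.35 to 0.38, SE 0.16, adjusted p = 0.985 by limma).

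Smad9, the third SMAD of that branch, was the most variable member. Its log2 signals were 8.85, 9.48 and 9.66 in mutants and 9.61, 9.43 and 10.07 in controls. Mutant 1 was the lowest of the 6 animals and control 3 the highest, and the groups overlapped. The log2 change of -0.37 (95% interval -0.95 to 0.21, SE 0.25, adjusted p = 0.679 by limma) was the lowest of the 10 members. It was -0.13 without mutant 1, -0.19 without control 3, and from -0.54 to -0.42 without any other animal.

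Both inhibitory SMADs were dim in every animal. Smad6, which acts mainly on BMP signals, had log2 signals of 6.46, 6.09 and 6.39 in mutants and 6.26, 5.99 and 6.05 in controls, and its log2 change was 0.21 (adjusted p = 0.72 by limma, SE 0.16). Smad7, which acts on both branches and is induced by TGF-beta in many cells, had log2 signals of 5.48, 5.80 and 5.04 in mutants and 5.53, 5.53 and 5.49 in controls. The mutants spread on both sides of the controls, with an SD of 0.38 in mutants and 0.03 in controls (n = 3 each) and a log2 change of -0.07 (adjusted p = 0.937 by limma, SE 0.20). At signals within the background range a true difference in Smad6 or Smad7 may be hidden. The other pairs compared within arrays, Smad1 with Smad5 and Smad6 with Smad7, had between-group differences of 0.18 and 0.29 log2 units (exact permutation p = 0.3 and 0.5, adjusted p = 0.5 over the 4 pairs for each).

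**Figure D2:**
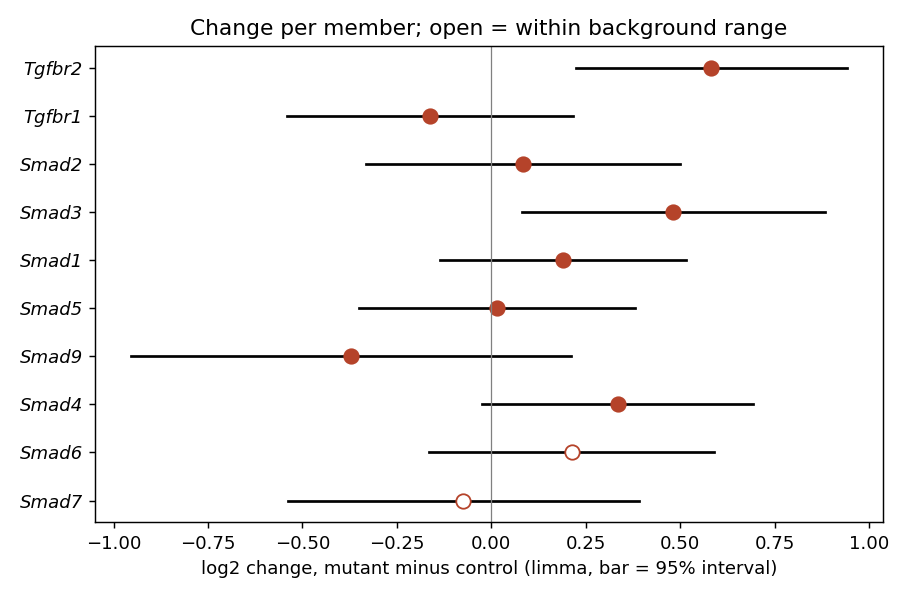
Log2 change, mutant minus control (horizontal axis), for each of the 10 genes with its 95% interval from limma (n = 3 animals per group). Open circles are the genes whose group means both lay within the background range, Smad6 and Smad7, and the intervals of Tgfbr2 (0.22 to 0.94) and Smad3 (0.08 to 0.88) do not reach 0.

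Upstream of the receptors, among TGF-beta ligands and the genes that store or release them, 2 of 13 genes rose past the test, Lrrc32 and Tgfb2, while 0 fell and 11 did not pass. Over all probe sets 0.054% passed with a higher and 0.018% with a lower signal in mutants. The list, like the others, was drawn up with earlier results of these data known, so its counts are a description only. At an unadjusted p under 0.05, 6 were higher and 0 lower, beside 5.42% and 4.96% of all probe sets. Log2 changes were above 0 in 10 of the 13, beside 48% over all probe sets. The median log2 change was 0.39 beside -0.01 over all probe sets. Of the 13 genes 4 were dim in both groups, Ltbp1, Ltbp2, Nrros and Itgb6, and Ltbp2 was among the 6 higher. Tgfb2, a ligand that also binds the coreceptor betaglycan, had log2 signals of 9.18, 8.84 and 8.68 in mutants and 7.53, 7.50 and 7.38 in controls. It rose by 1.44 log2 units (adjusted p = 0.0357 by limma, SE 0.17). Lrrc32, which tethers latent TGF-beta to the cell surface, had log2 signals of 10.43, 10.88 and 10.33 in mutants and 8.79, 8.64 and 8.37 in controls and rose by 1.95 (adjusted p = 0.0223 by limma, SE 0.20). The groups of both genes stood more than 1 log2 unit apart at their nearest animals. Both calls were lost when any 1 animal was left out, except that Lrrc32 passed without mutant 3, with changes of 1.78 to 2.06 for Lrrc32 and 1.30 to 1.55 for Tgfb2. Both were also lost with the fibroblast covariate (changes of 1.99 and 1.22) and the endothelial covariate (1.74 and 1.40).

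The other ligand genes did not pass. Tgfb3 had a log2 change of 0.57 (adjusted p = 0.33 by limma, SE 0.18), with signals of 9.29, 9.45 and 8.95 in mutants and 8.48, 8.72 and 8.78 in controls. Tgfb1, the ligand of broadest expression, had a log2 change of 0.32 (adjusted p = 0.569 by limma, SE 0.17), with mutants higher by a gap of 0.05. Thbs1, a matrix protein that can release active TGF-beta from its latent form, had a log2 change of 1.58 (adjusted p = 0.0629 by limma, SE 0.24) without passing.

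The other receptors and coreceptors of the family had 0 of 16 genes past the test. At an unadjusted p under 0.05, 1 was higher and 1 lower, beside 5.42% and 4.96% of all probe sets. Of the 16, 14 had log2 changes above 0, beside 48% over all probe sets. The list median was 0.17, beside -0.01 over all probe sets, with a range of -0.40 to 0.65, and 7 were dim in both groups. Eng, an endothelial coreceptor, had log2 signals of 14.83, 15.00 and 14.95 in mutants and 14.74, 14.44 and 14.38 in controls. All mutants were above the controls, with a log2 change of 0.41 (adjusted p = 0.423 by limma, SE 0.16). Eng is also on the endothelial list below and is counted there again as higher. Acvrl1, an endothelial receptor of the same type as TGFBR1, had a log2 change of 0.38 (adjusted p = 0.634 by limma, SE 0.23), with mutant 1 at 10.18 and the other mutants at 9.41 and 9.36. Rgmb, a BMP coreceptor, was lower at -0.39 (adjusted p = 0.466 by limma, SE 0.16), and Amhr2, the receptor of anti-Müllerian hormone, was dim with a change of 0.65 (adjusted p = 0.486 by limma, SE 0.29). Bmpr2, which pairs with BMP receptors of the first type, changed by 0.03 (adjusted p = 0.967 by limma, SE 0.16).

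Genes that control SMAD activity, such as ubiquitin ligases and corepressors, had a median log2 change of 0.02, near that of all probe sets. Of 21 measured, 0 passed, with 1 higher and 1 lower at an unadjusted p under 0.05, beside 5.42% and 4.96% of all probe sets. Changes were above 0 in 12, beside 48% over all probe sets. Pmepa1, a TGF-beta-induced inhibitor of SMAD2 and SMAD3, had log2 signals of 10.96, 10.64 and 10.79 in mutants and 11.10, 11.19 and 11.38 in controls. Every mutant was below every control, with a log2 change of -0.43 (adjusted p = 0.4 by limma, SE 0.16). Tgif2, a SMAD corepressor, had a change of 0.62 (adjusted p = 0.437 by limma, SE 0.24), and the corepressor Skil, which is also a TGF-beta target, had one of 0.33 (adjusted p = 0.595 by limma, SE 0.18), both with overlapping groups.

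Downstream, 0 of 23 measured TGF-beta target genes passed the test. At an unadjusted p under 0.05, 6 were higher and 1 lower, beside 5.42% and 4.96% of all probe sets. Of the 23 log2 changes 16 were above 0, beside 48% over all probe sets. The list median was 0.24, beside -0.01 over all probe sets, and 7 genes were dim in both groups, Ltbp2 among them. Tgfbi, a secreted matrix protein named for its induction by TGF-beta, had log2 signals of 12.14, 12.44 and 12.26 in mutants and 11.19, 11.20 and 11.36 in controls. The groups were 0.79 log2 units apart, and the change of 1.03 (adjusted p = 0.0558 by limma, SE 0.15) had an adjusted p just above the threshold. Fn1, fibronectin, had a change of 1.35 (adjusted p = 0.257 by limma, SE 0.36) and is also on the fibroblast list below, as are the collagen targets. Tagln is also on the smooth muscle and pericyte list. Ccn2, which TGF-beta and YAP both induce, had a change of 0.19 (adjusted p = 0.797 by limma, SE 0.20). Changes within the list ran from -0.43 for Pmepa1 to 1.58 for Thbs1. Thbs1, Ltbp2 and Itgb6 are also on the ligand list, and Thbs1 and Ltbp2 are among the higher genes counted in both. Pmepa1, Skil, Tgif1 and Ldlrad4 are also on the list of SMAD regulators, where Pmepa1 is again the gene counted as lower. The counts of these lists are therefore not independent.

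Of 18 BMP target genes, 1 rose, 0 fell and 17 did not pass, beside 0.054% higher and 0.018% lower over all probe sets. The list had 9 log2 changes above 0, beside 48% over all probe sets, a median of 0.01 and 11 genes dim in both groups. The gene that rose was Tgfb2, better known as a ligand than as a BMP target. It is the same call that was counted above among the ligands. Among the inhibitors of DNA binding, the most used readouts of BMP signals, Id1 had a change of 0.23 (SE 0.16), Id3 of 0.39 (SE 0.26) and Id2 of -0.23 (SE 0.17), with limma adjusted p from 0.67 to 0.70. Msx1, a homeobox gene, was dim with a change of -0.54 (adjusted p = 0.259 by limma, SE 0.14), and the decoy receptor gene Bambi was dim with 0.38 (adjusted p = 0.504 by limma, SE 0.18). Bambi is also on the list of other receptors and coreceptors. Smad6, Smad7 and Smad9 are themselves on the BMP list and Smad7 on the TGF-beta list, so these lists and the members are not independent.

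**Figure D3:**
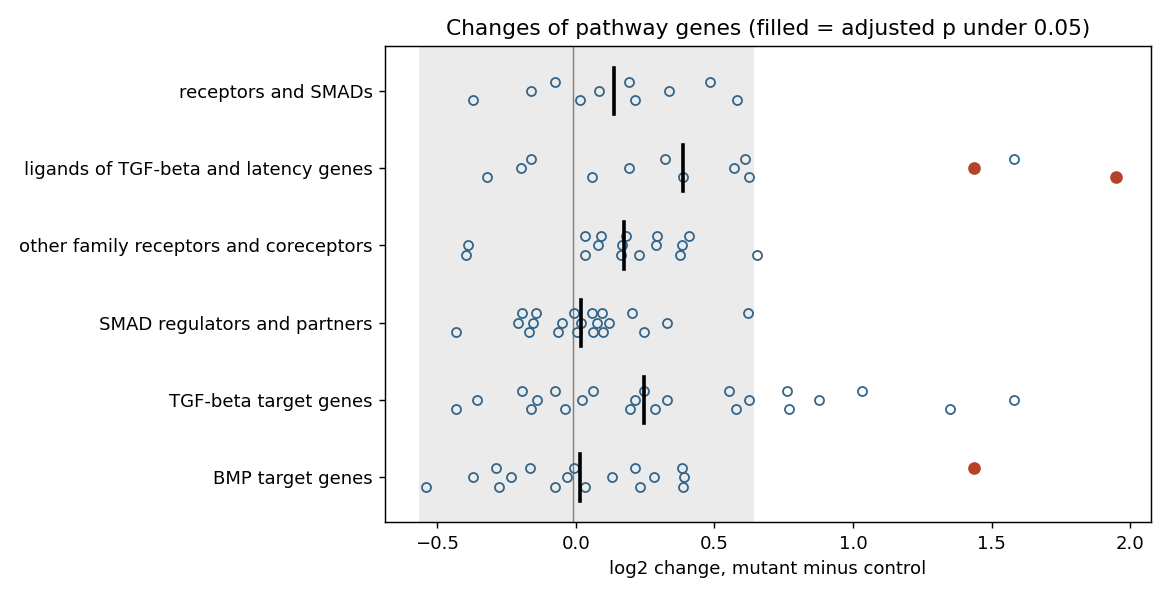
Log2 change, mutant minus control (horizontal axis), of each measured gene by list, with a bar at the list median; filled circles had a limma adjusted p under 0.05. The grey band spans the middle 95% of all probe sets and the vertical line is their median, -0.01, and only Tgfb2, which is in both the ligand and BMP lists, and Lrrc32 are filled.

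Mean signals of the marker lists of other cell types were higher in mutants for some lists and lower for others, and no marker gene passed the limma test. Over all probe sets 48% of log2 changes were above 0, to be read beside the counts of higher genes that follow. In bulk tissue a larger share of a cell type and more RNA per cell cannot be told apart. The endothelial list had a mean log2 signal of 13.10, 13.13 and 13.06 in mutants and 12.84, 12.58 and 12.78 in controls, with 8 of 9 genes higher and no overlap of the groups. The fibroblast list had means of 11.42, 10.97 and 10.58 in mutants and 10.43, 10.18 and 10.68 in controls, with 8 of 9 genes higher and mutant 3 below control 3. Smooth muscle and pericyte genes ranged from 9.33 to 9.79 in mutants and from 8.89 to 9.16 in controls, with 7 of 9 higher and Myh11, Cnn1 and Cspg4 dim.

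Smaller or more scattered differences were seen in the remaining marker lists. Adrenal cortex means ran from 17.37 to 17.53 in mutants, below all controls (17.55 to 17.58), with 2 of 9 genes higher. At an unadjusted limma p under 0.05, 1 cortical gene, Mrap, was lower, beside 4.96% of all probe sets. Macrophage means ran from 8.86 to 9.28 in mutants and from 8.79 to 8.92 in controls, with 7 of 8 genes higher, and Adgre1, Itgam and Cx3cr1 were dim. Adipocyte means were 12.36, 9.98 and 9.36 in mutants and 8.22, 9.77 and 10.99 in controls, with 9 of 9 higher and Lep dim. Mutant 1 was above all controls, and mutants 2 and 3 lay within their range. Chromaffin means ran from 13.34 to 13.49 in mutants and were 13.66, 14.36 and 13.31 in controls, with 0 of 7 higher. Control 2 was the highest and control 3 the lowest of the animals. No marker gene of any list passed the limma test. At an unadjusted p under 0.05, 13 marker genes had a higher signal in mutants, beside 5.42% of all probe sets. They were 5 of 9 endothelial, 4 of 9 smooth muscle and pericyte, 3 of 9 fibroblast and 1 of 8 macrophage genes. In the adrenal cortex, adipocyte and chromaffin lists 0 were higher at that limit.

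Tgfbr2 and Smad3 are set beside these marker means animal by animal. Control 2 was the lowest of the 6 animals in Tgfbr2, the endothelial mean and the fibroblast mean, whereas Smad3 was lowest in control 3, the control of highest fibroblast mean. Mutant 1 was the highest in Tgfbr2, Smad3 and the fibroblast mean, whereas the endothelial mean was highest in mutant 2. With each array's fibroblast mean as a covariate, the log2 change was 0.41 (SE 0.21, adjusted p = 0.81 by limma) for Tgfbr2 and 0.29 (SE 0.24, adjusted p = 0.888 by limma) for Smad3. With the endothelial mean as a covariate it was 0.10 (SE 0.37) for Tgfbr2 and 0.18 (SE 0.45) for Smad3. The endothelial mean separates the groups, so that fit can hardly split it from genotype, as its larger errors show. The part of these cell types in the result was not tested further. For Smad4 the change was 0.51 (SE 0.21) with the fibroblast, 0.25 (SE 0.42) with the endothelial and 0.41 (SE 0.15) with the adipocyte covariate, beside 0.33 without one. With the adipocyte covariate it was 0.57 (SE 0.17) for Tgfbr2 and 0.46 (SE 0.19) for Smad3. None of these fits passed over all probe sets.

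**Figure D4:**
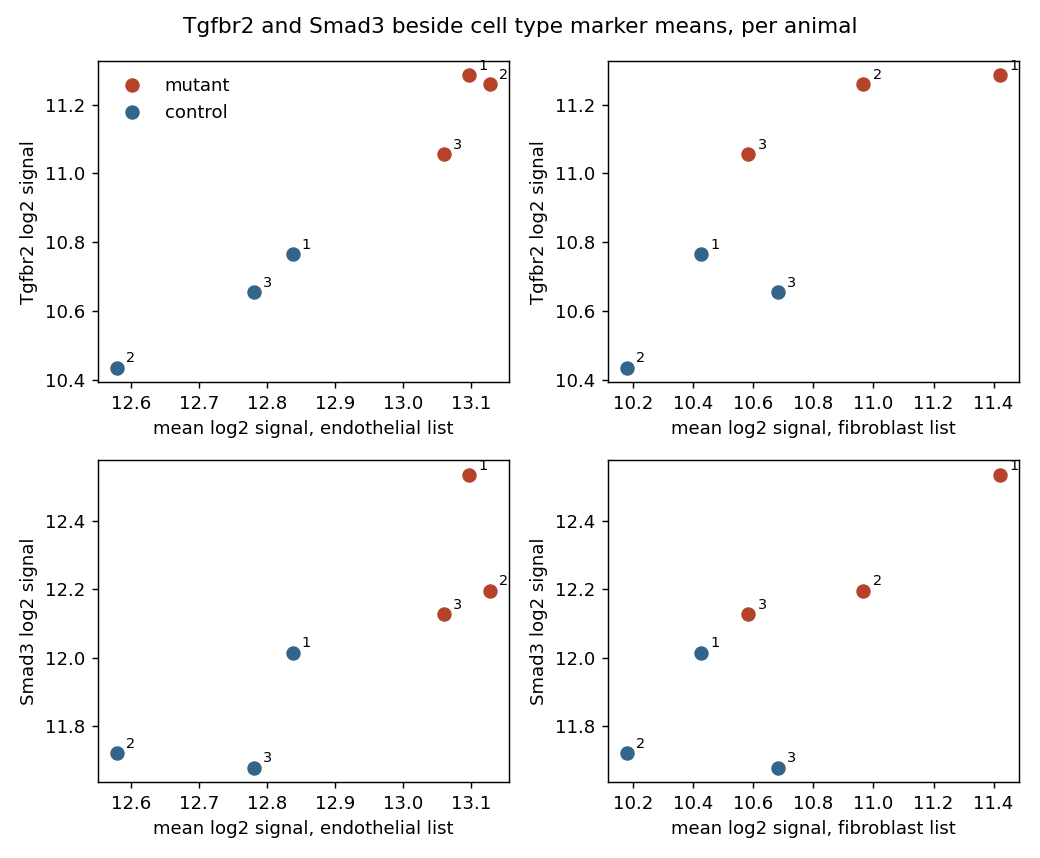
Log2 signal of Tgfbr2 (top) and Smad3 (bottom) against the mean log2 signal of the endothelial (left) and fibroblast (right) lists, 1 point per animal, mutants in red and controls in blue, numbered by replicate. Mutants lie to the right of all controls on the endothelial axis (13.06 to 13.13 against 12.58 to 12.84) and overlap them on the fibroblast axis.

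The genes whose profile over the 6 animals was most like that of Tgfbr2, the member of smallest p, were Mef2a, Tspan9 and Mob3b. Likeness was the root mean square difference of log2 signals after centring each gene on its own mean. It was 0.04 log2 units for Mef2a and Tspan9 and 0.06 for Mob3b, against a median of 0.39 over all other named probe sets. Mef2a, a transcription factor best known from muscle, had log2 signals of 13.51, 13.49 and 13.27 in mutants and 12.995, 12.77 and 12.93 in controls. Tspan9 encodes a tetraspanin and Mob3b a protein of the MOB family of kinase adaptors. All 3 genes were higher in every mutant than in any control, as their choice by likeness to Tgfbr2 implies.

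Leaving out 1 animal at a time, the log2 change of Tgfbr2 ranged from 0.49 to 0.66. That of Smad3 ranged from 0.36, without mutant 1, to 0.59, and that of Smad4 from 0.27 to 0.45, the highest without mutant 1. Mutant 1 had the highest Smad3 and the lowest Smad4 signal of the mutants.

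**Figure D5:**
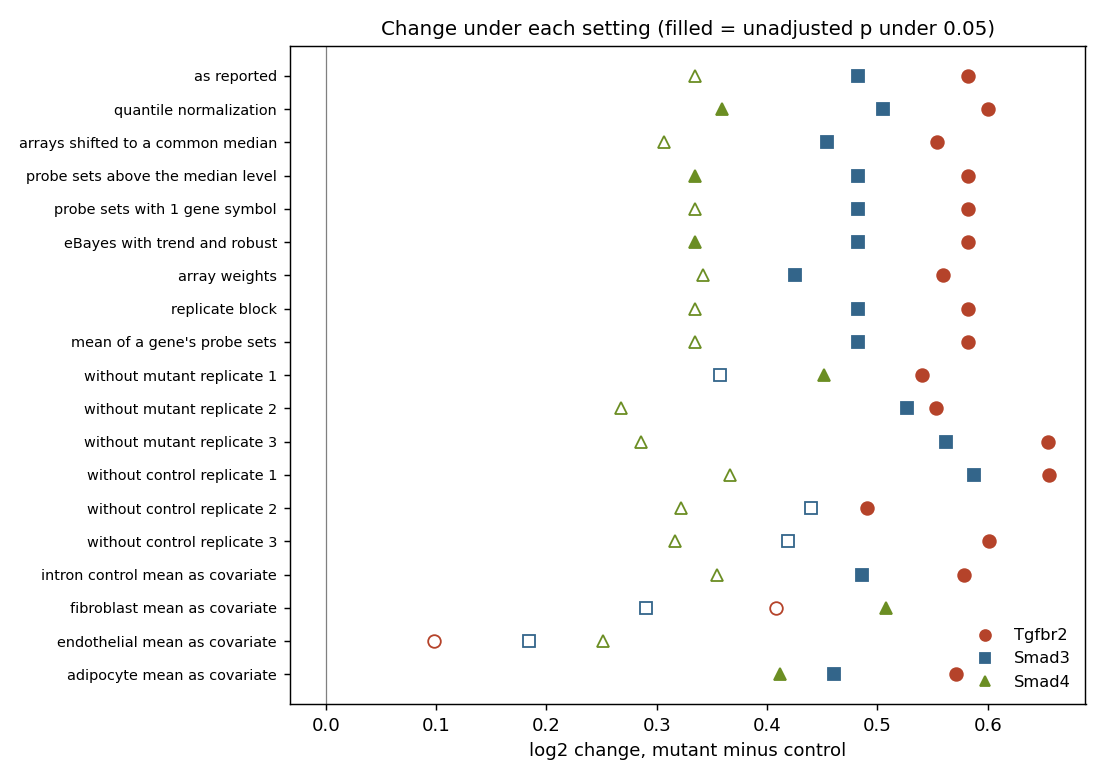
Log2 change, mutant minus control (horizontal axis), of Tgfbr2, Smad3 and Smad4 as reported and under each of 18 alternatives (vertical axis); filled marks had an unadjusted limma p under 0.05. Tgfbr2 stays between 0.49 and 0.66 when any 1 animal is left out and is 0.10 with the endothelial covariate.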

How the data were processed

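Total RNA of whole adrenal glands from 3 mutant and 3 control mice was measured with 1 array per animal, and groups follow the sample descriptions. The authors deposited 1 log2 signal for each probe set and animal. Transcriptome Analysis Console 4.0 is named in the submitters' processing notes. How background was corrected, probes summarised and arrays normalised is not given in the sources. A step that equalises arrays could mask a change common to most genes, and the number of animals limits the precision.

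Control probe sets (6640) were removed, leaving 22206, of which 19572 had 1 gene symbol, 0 several and 2634 none. All 19572 matched a gene by Entrez identifier in the GRCm38.p6 table. Mutant minus control was fitted with limma 3.58.1 in R 4.3.3 (lmFit and eBayes, all 6 arrays, no covariate or filter), with two-sided p-values adjusted by Benjamini-Hochberg over all probe sets and a threshold of 0.05. The procedure was tested on simulated data.

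The members and gene lists were chosen with earlier results of these data known. Genes named were the members, up to 3 genes of smallest p from each pathway list, and Tgfb1, Tgfb2, Tgfb3, Acvrl1, Eng, Bmpr2, Ccn2, Id1, Id2 and Id3. Added to these were the 3 genes most like the member of smallest p. A further gene of the rule is not reported here. Alternatives were other normalizations, filters, variance models, covariates, the replicate block, gene-level means, another threshold and each animal left out.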

Additional observations from a re-analysis of the deposited data

How the results depend on the processing

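Under all 19 alternatives, an adjusted p threshold of 0.1 among them, limma called 0 of the 10 members; 2 had an unadjusted p under 0.05 as reported. Tgfbr1, Tgfbr2, Smad3, Smad4, Smad6 and Smad9 kept their direction wherever they were fitted, and Smad6 and Smad7 could not be fitted above the median level. Members with an unadjusted p under 0.05 numbered 1 to 2 with 1 animal left out: Tgfbr2 alone without control 2 or control 3, and Tgfbr2 with Smad4 in place of Smad3 without mutant 1. They numbered 3, with Smad4 added, under quantile normalization, above the median level, with trend and robust variance and with the adipocyte covariate. They numbered 1 (Smad4) with the fibroblast covariate and 0 with the endothelial covariate.

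Direction turned in Smad1, Smad2, Smad5 and Smad7. Smad5 changed by -0.0129 with arrays shifted to a common median, -0.0094 with the intron covariate, -0.24 with the fibroblast, -0.18 with the endothelial and -0.0663 with the adipocyte covariate, and from -0.10 to 0.10 with 1 animal left out. Smad7 ranged from -0.25 to 0.13 with 1 animal left out, and was 0.13 without mutant 3. With the endothelial covariate Smad1 was -0.0904 and Smad2 -0.0734. The cause of these turns was not tested.

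Over all probe sets limma called 16, and 38 with quantile normalization, 32 after a median shift, 92 above the median level, 41 with 1 symbol, 175 with trend and robust variance, 48 with array weights and 108 at a threshold of 0.1. It called 8 with the intron, 0 with the fibroblast (6.48% at an unadjusted p under 0.05), 1 with the endothelial and 2 with the adipocyte covariate. With 1 animal left out it called from 1 (without any 1 control) to 15, and 6 without mutant 2.

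With the replicate block limma called 1 probe set and 0 members, and lost Lrrc32 (adjusted p = 0.0819) and Tgfb2 (adjusted p = 0.0845). Both were lost with the adipocyte covariate (adjusted p = 0.0631 and 0.0903), and Tgfb2 with the intron covariate (adjusted p = 0.0846). Deviations of same-numbered animals correlated at -0.09, 0.08 and -0.07 across probe sets. Mutant 1 and mutant 3 correlated best with a control of another number, and mutant 2 with control 2. With 3 animals per group these values cannot decide whether same-numbered samples were paired.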
